A study of Mus musculus with 8 samples.

Results

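The genes of 4 families of splicing proteins were examined in mouse liver: the SR proteins (Srsf), the heterogeneous nuclear ribonucleoproteins (Hnrnp), the proteins of small nuclear ribonucleoproteins (Snrp) and the splicing factor 3a and 3b subunits (Sf3). Members were chosen by gene symbol alone, with pseudogene symbols left out, which gave 53 of the 56077 rows of the deposited count table. Of these, 51 passed the filter on low counts and were tested among 14261 genes: 10 of 11 Srsf, 20 of 20 Hnrnp, 12 of 13 Snrp and 9 of 9 Sf3 genes. The 2 members that did not pass were Srsf12, with 1 count in library H15 and 0 in the other libraries, and Snrpert, at 0 in all 8 libraries, where 3 counts correspond to 0.105 to 0.135 CPM (counts scaled to library size). Livers came from 4 wild-type mice (libraries W32, W33, W76 and W90) and 4 mice labelled eIF2α flox/+ (H11, H12, H15 and H75), called heterozygous here. All were C57BL/6 mice aged 6 months, fed freely on an equal light and dark cycle and killed in the early morning. No recombinase or promoter driving one is named in the labels, and the growth protocol describes the mice of both groups as wild-type. Nothing says whether mice shared a litter, so p-values measure only the spread between these samples. In whole liver RNA, fewer cells of a type and less RNA per cell cannot be told apart.

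Introns are removed from pre-mRNA by the spliceosome, which is built from small nuclear RNAs and their proteins. Sm proteins, encoded by Snrpb, Snrpd1, Snrpd2, Snrpd3, Snrpe, Snrpf and Snrpg, form the ring around most of these RNAs, and the SF3A and SF3B complexes belong to the U2 particle that recognises the branch point. SR proteins bind exons and usually promote the use of nearby splice sites, while hnRNP proteins coat nascent RNA and often repress sites or act on export, stability and translation. In liver, several of them shape the splicing programmes of hepatocyte maturation and metabolism.

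Library totals were 25626387 to 27799116 estimated counts in wild type and 22178028 to 28564400 in heterozygotes. Eif2s1, the gene that encodes eIF2α, was at 28.4, 28.8, 32.8 and 30.1 CPM in W32, W33, W76 and W90 and at 20.5, 22.3, 20.8 and 25.1 CPM in H11, H12, H15 and H75. The groups did not overlap for Eif2s1, with a log2 fold change of -0.44 ± 0.095 (SE) and an adjusted p of 0.315 in the quasi-likelihood test of edgeR (0.0159 in DESeq2). Hepatocyte markers summed to 74268.5 to 101333 CPM in wild type and 86789.8 to 96078.8 in heterozygotes. The ranges of the Kupffer cell, sinusoidal endothelium, stellate cell, cholangiocyte, lymphocyte, adipocyte and proliferating cell markers also overlapped between the groups. The adipocyte sum rested on Lipe, with Lep at 0 in all 8 libraries and Adipoq and Plin1 at 0 in 5. The 6 neutrophil markers summed to 0.953 to 2.46 CPM in wild type and to 4.79, 7.55, 1.32 and 6.70 CPM in H11, H12, H15 and H75, with the defining marker Ly6g at 0 in 7 libraries. Scaling (TMM) factors lay between 0.9997 and 1.06 in wild type and were 1.02, 0.909, 1.06 and 0.900 in H11, H12, H15 and H75, so H12 and H75 stood below the rest. Mitochondrial transcripts took 6.36 to 7.34% of wild-type and 5.26 to 6.32% of heterozygous counts.

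No member passed the test for a difference between heterozygous and wild-type livers. With edgeR, 0 of 51 members passed an adjusted p of 0.05, and 0% of all genes tested did. The lowest adjusted p of a member was 0.588, for Srsf7. At an unadjusted p under 0.05 the count was also 0 of 51 members, against 9.34% of all genes tested (4.9% higher and 4.44% lower). Values of the 2 groups overlapped for all 51 members, whereas they did not overlap for 4.38% of all genes. DESeq2 called 1.05% of all genes and 0 members, and limma-voom called 0% of genes and 0 members. Without W90, 5 members had an unadjusted p under 0.05 (Hnrnpa0, Hnrnpd, Snrpb, Snrpf and Srsf9), against 9.86% of all genes, and the groups did not overlap for 4 members, against 10% of all genes. Without H15, 3 members had an unadjusted p under 0.05 (Hnrnph2, Hnrnph3 and Snrpd1), against 16% of all genes, and the groups did not overlap for 5 members, against 13.4%. In that fit 1.74% of all genes and 0 members passed the adjusted threshold. In the authors' deposited table, none of the 51 members was marked significant and the lowest adjusted p was 0.641, for Sf3b2.

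With TMM factors, the intervals bounded the differences of most members. The 95% confidence interval of the heterozygous to wild-type ratio lay within 1.5-fold in either direction for 48 of 51 members (94.1%), against 53.8% of all genes tested. The exceptions were Snrpd1, Snrpd2 and Srsf3. For all 51 it lay within 2-fold, against 78.8% of all genes. Over the 8 libraries the coefficient of variation had a median of 10.5% for members and 17.1% for all genes. Among members it ran from 4.47% for Srsf6 to 21.8% for Snrpd1. The 191 other genes of the splicing machinery were similar, with 89.5% of intervals within 1.5-fold and a median coefficient of variation of 11.1%. Member counts ran from 156 to 10253, and all genes were not matched to them by count.

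**Figure D1:**
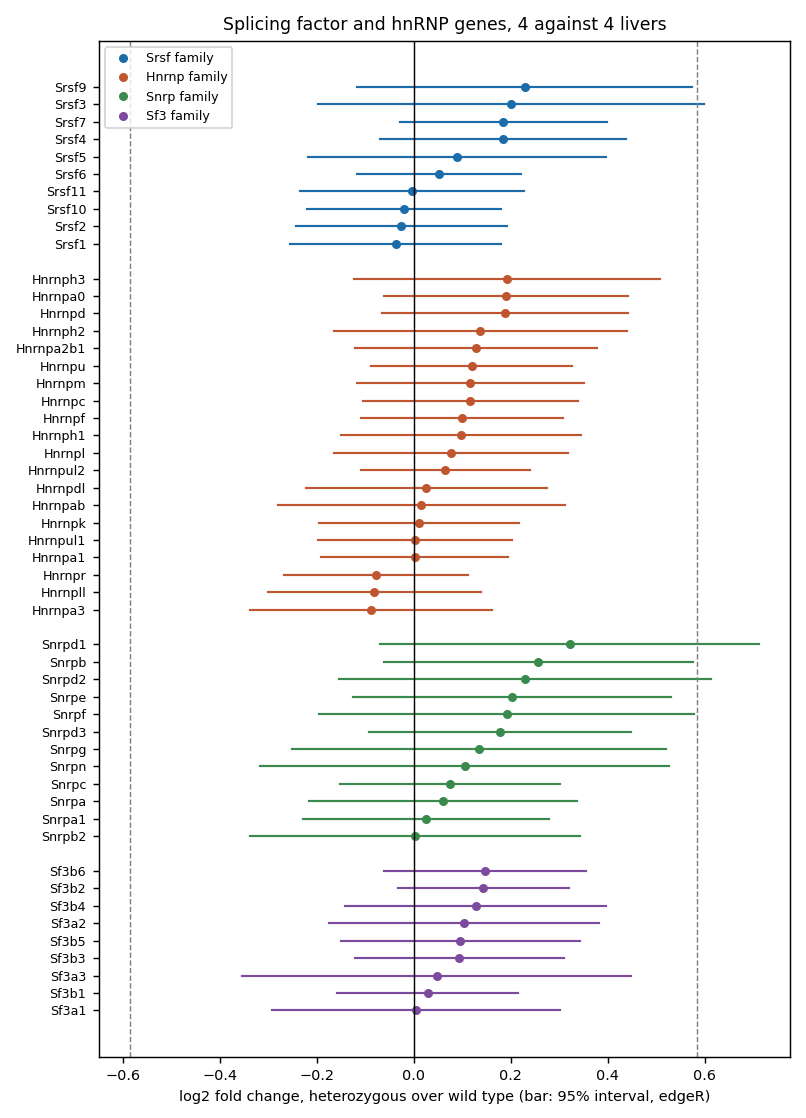
Log2 fold change, heterozygous over wild type, of each of the 51 members with its 95% confidence interval from edgeR, coloured by family, with dashed lines at 1.5-fold. The estimates lie between -0.09 and 0.32, and the intervals of Snrpd1, Snrpd2 and Srsf3 are the ones that cross the upper line.

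Fitted log2 fold changes were small and mostly above 0. They were positive for 44 of 51 members (86.3%), against 51.1% of all genes, with a median of 0.097 against 0.0051. The split depended on scaling, and that of all genes moved with it. With library totals alone it was 28 of 51 (54.9%), against 34.4% of all genes, with a median of 0.0049 against -0.079. With upper quartile factors it was 38 of 51 (74.5%), against 48.3%. The members' median lay above that of all genes by 0.092 with TMM, 0.088 with upper quartile factors and 0.084 with library totals alone. By family, the median was 0.070 for Srsf and 0.087 for Hnrnp, both of which turned negative with library totals alone (-0.012 and -0.0097), and 0.157 for Snrp and 0.096 for Sf3, which stayed positive at 0.056 and 0.0038. With TMM factors, 128 of 191 other genes of the splicing machinery were also positive (67.0%), with a median of 0.079. No test was run over the members as a group.

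The positive values came mainly from 2 of the 4 heterozygous livers. Relative to each gene's wild-type mean, the median member stood at 0.230 in H12 and 0.180 in H75 on the log2 CPM scale, but at -0.010 in H11 and -0.011 in H15. In wild type it stood at -0.037 in W32, -0.045 in W33, -0.034 in W76 and 0.105 in W90. H12 or H75 held the highest value of 34 of 51 members (66.7%), against 34.3% of all genes. The median log2 fold change of the members was 0.055 without H12 and 0.070 without H75. These are also the 2 libraries with the lowest scaling factors, the highest neutrophil marker sums, the lowest mitochondrial shares (5.38 and 5.26%), the highest shares of counts in unannotated loci (0.977 and 0.569%, against 0.431 to 0.510% elsewhere) and the lowest stellate cell marker sums (151 and 92.2 CPM). The part of these in the members' values was not tested. Before scaling, members took 0.294 to 0.332% of the counts of a wild-type library and 0.294 to 0.318% of a heterozygous one.

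**Figure D2:**
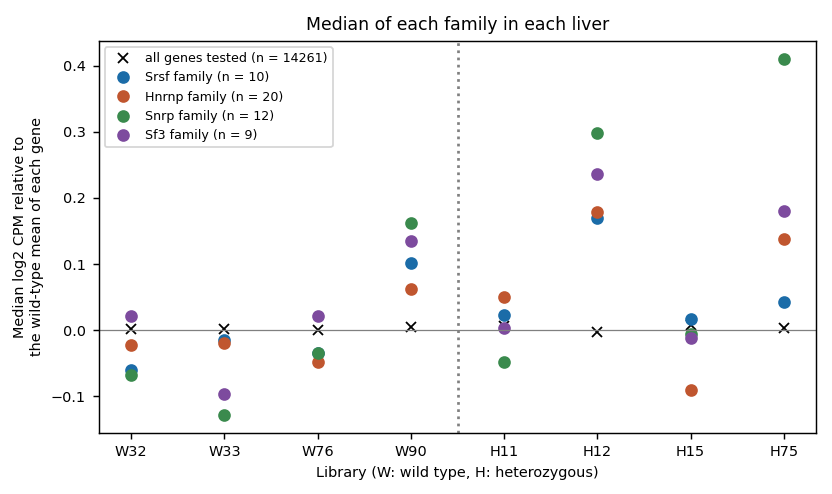
Median log2 CPM of each family relative to the wild-type mean of each gene, for each of the 8 libraries, with crosses for all genes tested. The median Snrp gene is highest in H75 (0.411) and H12 (0.297), whereas the median Srsf gene is lower in H75 (0.043) than in W90 (0.102) and the median Hnrnp gene is lowest in H15 (-0.090).

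Among SR proteins, 6 of 10 tested genes had positive fold changes (5 with library totals alone), and 0 passed the test. Srsf7, an SR protein with a zinc knuckle (GRCm38 chr17:80200080-80207307, minus strand), was at 26.0, 31.0, 28.9 and 30.9 CPM in W32, W33, W76 and W90 and at 30.2, 36.8, 31.8 and 33.9 CPM in H11, H12, H15 and H75. H11 fell inside the wild-type range and the other heterozygous livers above it. Its log2 fold change was 0.18 ± 0.0952 (SE), with a 95% interval of -0.03 to 0.40. Srsf3, a small SR protein needed for hepatocyte maturation in mice, was at 34.6, 31.9, 41.7 and 46.7 CPM in the wild-type libraries in that order and at 42.9, 57.3, 45.8 and 32.02 CPM in the heterozygous ones. The highest heterozygous value, in H12, was above every wild-type value and H75 was level with the lowest. Its log2 fold change was 0.20 ± 0.178, with an interval of -0.20 to 0.60 and an adjusted p of 0.752. Srsf4 and Srsf9 had log2 fold changes of 0.18 ± 0.114 and 0.23 ± 0.155, with adjusted p-values of 0.654 and 0.678.

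The 3 most abundant SR transcripts per length had small differences of either sign. Levels are given as CPM per kilobase of the deposited gene length (RPKM). Srsf5 had the highest level of the family, 96.9 ± 14.6 RPKM in wild type and 103 ± 14.5 in heterozygotes (SD, n = 4 each). Its 8 values were 156, 153, 113 and 159 CPM in wild type and 154, 132, 184 and 148 CPM in heterozygotes, so W76 was the lowest and H15 the highest. Srsf1, the prototype of the family, was at 61.6 and 60.0 RPKM and Srsf2, a protein of nuclear speckles, at 70.2 and 68.9 RPKM. Their log2 fold changes were -0.04 and -0.03, with adjusted p-values of 0.931 and 0.952. The summed CPM of the Srsf genes was 615 ± 31.7 in wild type and 641 ± 26.1 in heterozygotes.

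Of the hnRNP genes, 17 of 20 had positive fold changes (13 with upper quartile factors and 9 with library totals alone), and 0 passed the test. Hnrnpa2b1, an RNA-binding protein of splicing and RNA transport (chr6:51460932-51469894, minus strand), had the highest level per length of all members, 179 ± 9.63 RPKM in wild type and 196 ± 27.4 in heterozygotes. It was at 301, 304, 298 and 334 CPM in wild type and at 318, 395, 285 and 354 CPM in heterozygotes, where H15 was below and H12 and H75 above every wild-type library. Its log2 fold change was 0.13 ± 0.112, with an adjusted p of 0.748. Hnrnpu, a nuclear scaffold protein that binds RNA and chromatin, was at 191, 193, 196 and 200 CPM in wild type and at 203, 239, 186 and 218 CPM in heterozygotes. H15 again was the lowest of the 8, and the log2 fold change was 0.12 ± 0.0928 (adjusted p 0.720).

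Hnrnpa0, which binds AU-rich mRNAs, and Hnrnpd, also called AUF1 and known for AU-rich mRNA decay, both had a log2 fold change of 0.19, with adjusted p-values of 0.640 and 0.645. Hnrnpa0 was at 33.4, 38.9, 34.5 and 44.8 CPM in wild type and 39.6, 48.8, 42.4 and 42.2 CPM in heterozygotes. W90 lay above 3 of the 4 heterozygous livers. Hnrnph3, a relative of the G-run binding hnRNP H, was at 19.9, 17.7, 19.0 and 17.9 CPM in wild type and 20.8, 24.5, 15.5 and 24.2 CPM in heterozygotes, with H15 lowest of all. Hnrnpa3, Hnrnpll and Hnrnpr were the 3 with negative values. Hnrnpa3 was at 161, 144, 159 and 168 CPM in wild type and 144, 176, 125 and 149 CPM in heterozygotes (log2 fold change -0.09 ± 0.112, adjusted p 0.834). Hnrnpab had a log2 fold change of 0.01, with an adjusted p of 0.984, and the sign turned negative with library totals alone or upper quartile factors. The lowest level per length in the family, 1.25 RPKM, was that of Hnrnpr, whose deposited length is 21452 bases.

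**Figure D3:**
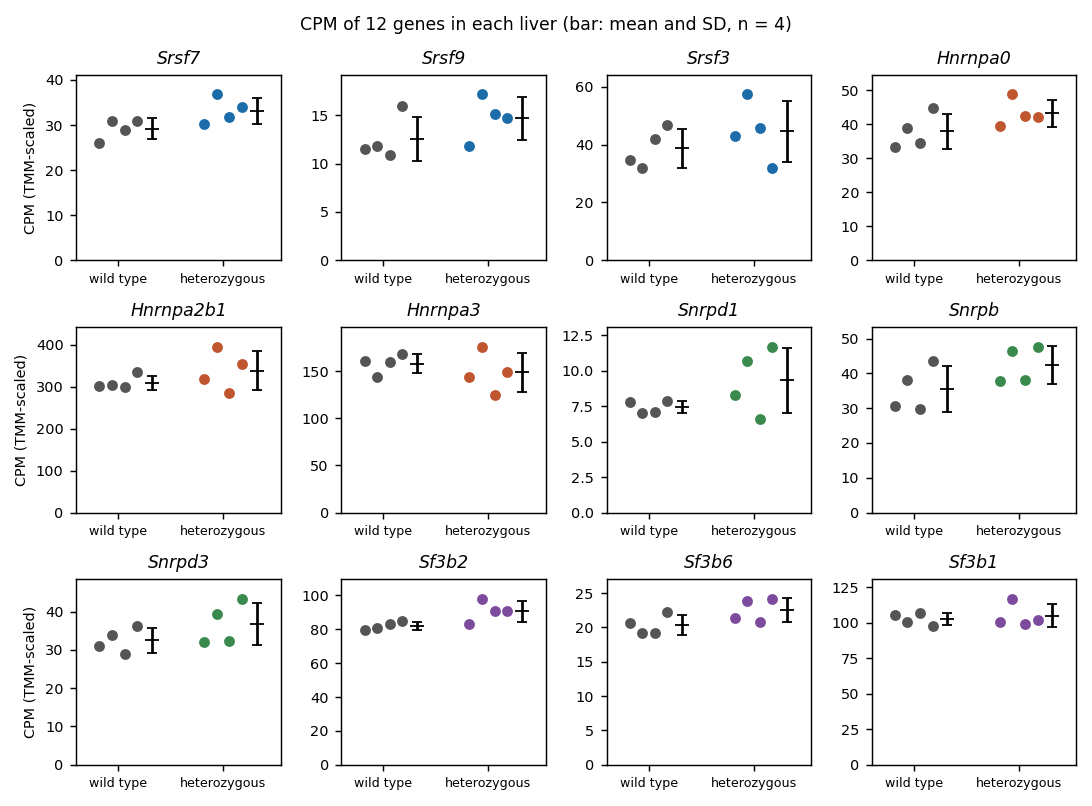
CPM of 12 members in each of the 8 libraries, with the mean and SD of each group (n = 4) beside the points. The wild-type and heterozygous points overlap in every panel.

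All 12 tested Snrp genes had positive fold changes (11 with upper quartile factors and 8 with library totals alone), and 0 passed the test. The median of the 7 Sm genes was 0.202. Snrpd1, which encodes the Sm protein D1, had the largest estimate of all members. It was at 7.80, 7.004, 7.13 and 7.87 CPM in wild type and at 8.27, 10.7, 6.63 and 11.7 CPM in heterozygotes. H11, H12 and H75 were above every wild-type liver and H15 was below all of them. The log2 fold change was 0.32 ± 0.175, with an interval of -0.07 to 0.71 and an adjusted p of 0.609.

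Snrpb, which encodes Sm B (chr2:130171414-130179403, minus strand), had the highest level per length in the family, 30.6 RPKM in wild type and 36.5 in heterozygotes. It was at 30.5, 38.1, 29.7 and 43.7 CPM in wild type and 37.7, 46.3, 38.0 and 47.7 CPM in heterozygotes. W90 lay above 2 of the 4 heterozygous livers, and the log2 fold change was 0.26 ± 0.143 (adjusted p 0.620). Snrpd3 and Snrpe had log2 fold changes of 0.18 and 0.20, with adjusted p-values of 0.678 and 0.698, and for both the highest value was in H75. Of the 12 Snrp genes, 9 were highest in H75 and none in H12. Snrpc, a protein of the U1 particle that recognises the 5′ splice site, was at 16.1, 15.1, 14.3 and 16.7 CPM in wild type and 15.1, 17.6, 14.95 and 17.9 CPM in heterozygotes, and its value of 0.07 turned negative with library totals alone. Exons of Snrpn, a relative of Snrpb that is expressed from the paternal allele, overlap Snurf on the same strand, so its count is uncertain.

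**Figure D4:**
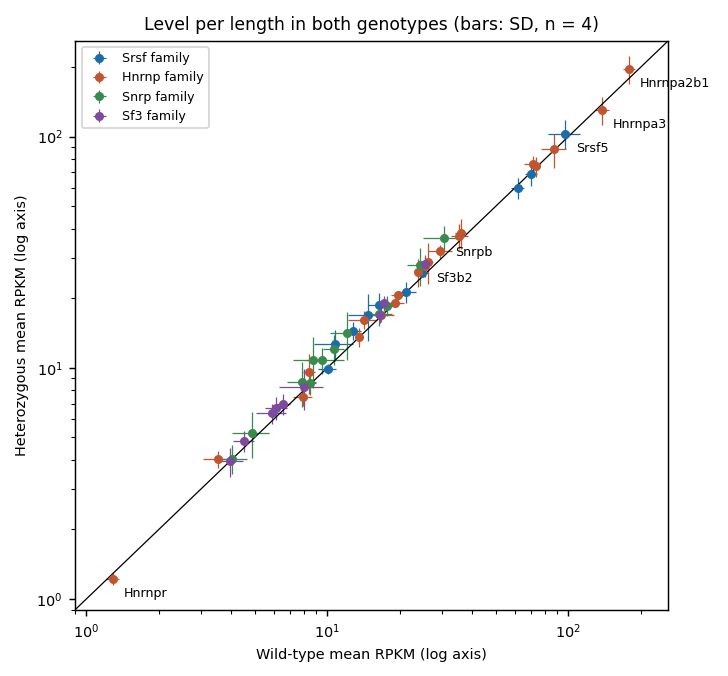
Mean heterozygous against mean wild-type level of each tested member in RPKM on log axes, coloured by family, with SD bars (n = 4) and the line of equal levels. Hnrnpa2b1 is highest at 187 RPKM over both groups and Hnrnpr lowest at 1.25 RPKM.

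All 9 Sf3 genes had positive fold changes (8 with upper quartile factors and 6 with library totals alone), and 0 passed the test. Sf3b2, which anchors the U2 particle near the branch point (chr19:5273932-5295455, minus strand), was at 79.5, 80.8, 83.2 and 84.7 CPM in wild type and at 82.9, 98.0, 90.8 and 90.8 CPM in heterozygotes. Only H11 fell inside the wild-type range. The log2 fold change was 0.14 ± 0.0792, with an interval of -0.03 to 0.32 and an adjusted p of 0.617. Sf3b6, the subunit that lies at the branch point adenosine, was at 20.6, 19.2, 19.2 and 22.3 CPM in wild type and 21.3, 23.8, 20.7 and 24.2 CPM in heterozygotes (0.15 ± 0.0934, adjusted p 0.660). Sf3b4 and Sf3b3 had log2 fold changes of 0.13 and 0.09, with adjusted p-values of 0.769 and 0.792. Sf3a2 had a log2 fold change of 0.10 ± 0.125, Sf3a3 of 0.05 ± 0.180 and Sf3a1 of 0.00398 ± 0.133, with adjusted p-values of 0.827, 0.953 and 0.995, and those of Sf3a1 and Sf3a3 turned negative with library totals alone. Sf3b1, the largest SF3B subunit, was at 106, 100, 107 and 97.8 CPM in wild type and 101, 117, 99.4 and 102 CPM in heterozygotes, with H12 apart from the rest. Its log2 fold change was 0.03 ± 0.0834 (adjusted p 0.940) and turned negative with library totals alone.

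Most Sf3 promoters held a sequence feature that the choice of members did not use. RefSeq promoter windows (GRCm38.p6, from 250 bases before to 50 after the gene start) were matched for 45 of 51 members, with 62 windows. Among tested genes, 10311 were matched. A gene was counted when any of its windows held the letters. The letters CCGGAAG, the core of an ETS factor motif, were found on either strand in 6 of 7 matched Sf3 genes (85.7%). They were in 16 of 45 members (35.6%) and in 19.5% of the matched tested genes. Only 2 of 18 matched Hnrnp genes held them, while 13 of 18 (72.2%) held CCAAT, against 43.0% of tested genes. Letters of a GC box, E-box, TATA box, NRF1 motif and YY1 motif were also searched in each family. The matches named are thus a selection from small families, with no test. CACGTG, an E-box, was in 5 of 18 Hnrnp (27.8%), 1 of 10 Snrp and 0 Srsf or Sf3 genes, against 11.6% of tested genes. GGGCGG, a GC box, was in 9 of 10 Srsf, 14 of 18 Hnrnp, 5 of 10 Snrp and 4 of 7 Sf3, against 66.0%. TTGCATCA is an amino acid response element of the kind bound by ATF4, which is translated when eIF2α is phosphorylated. It was in the windows of 0 of 45 matched members and of 0.805% of tested genes. With so rare a match, 0 of 45 says little. These matches describe letters in the windows and say nothing about binding. Windows on chromosome 8, which holds Sf3b3, are not shown. A further match in Sf3b6, in the reverse orientation (chr12:4817512-4817541), is also not shown. The stretches below show a match in 5 of these Sf3 genes, with CCGGAAG or its reverse complement in capitals and the gene's strand given.
Sf3a1 (chr11:4160336-4160365, plus strand): agagggcgggaCCGGAAGtgctcccgcggc
Sf3a2 (chr10:80798648-80798677, plus strand): cgcctttgctcCCGGAAGggatcgcttcgt
Sf3a3 (chr4:124714760-124714789, plus strand): cccccaagacaCTTCCGGgacacgcggaac
Sf3b2 (chr19:5295450-5295479, minus strand): ggattacgcaaCCGGAAGtttctggaagta
Sf3b6 (chr12:4817527-4817556, plus strand): cggtccgcaatCCGGAAGcgttctggagct

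Annotated decay transcripts are given as a description, with no test. In GENCODE, 9 of 10 Srsf, 10 of 20 Hnrnp, 4 of 12 Snrp and 1 of 9 Sf3 genes have a transcript marked as a target of nonsense-mediated decay, the route by which many SR proteins limit their own mRNA. The share was 47.1% of members and 28.7% of the 12532 protein-coding genes tested. A retained-intron transcript is annotated for 38 of 51 members (74.5%), against 58.6%, with similar shares in the 4 families (70 to 80%). Counts per gene do not separate these transcripts, so their use in the 2 groups was not measured. Of the 51 members, 25 had at least 1 fractional count. In 10 of them all 8 counts were fractional, among them Hnrnpa3, Hnrnpab, Hnrnph3, Hnrnpu, Srsf2 and Sf3a2. Exons of 19 members overlap a gene on the opposite strand and those of 6, Snrpn included, a gene on the same strand. The counts of these members are therefore less certain.

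Other genes of the splicing machinery were tested in the same fit, and 0 of 191 passed an adjusted p of 0.05 with edgeR, DESeq2 or limma-voom. At an unadjusted p under 0.05, 7 were higher and 2 lower (4.71%, against 9.34% of all genes). Of 70 core spliceosome genes outside the 4 families, 4 were higher and 0 lower at that level (Prpf6, Snrnp27, Ddx39b and Dhx38). Fold changes were positive for 53 of these 70 (median log2 0.115). Relative to the wild-type mean, their median stood at 0.284 in H12, 0.175 in H75, -0.024 in H11 and 0.035 in H15. Positive values were found for 9 of 10 minor spliceosome genes (median 0.207) and 26 of 48 other RNA-binding regulators (median 0.0060). Prpf6, a protein of the tri-snRNP, was at 42.6 ± 3.97 CPM in wild type and 53.1 ± 7.87 in heterozygotes (log2 fold change 0.32, adjusted p 0.479). Ddx39b, a helicase of spliceosome assembly and mRNA export, was at 68.5 ± 2.43 and 83.0 ± 12.5 CPM (0.28, adjusted p 0.482). Of 48 other RNA-binding splicing regulators, 1 was higher and 1 lower. The higher was Elavl1, which encodes the AU-rich element binding protein HuR, at 26.2 ± 2.03 CPM in wild type and 34.2 ± 7.63 in heterozygotes (0.38, adjusted p 0.484). For Elavl1, H12 and H75 lay above every wild-type liver, while H11 and H15 lay below W90. The lower was Rbfox2, which binds GCAUG, at 27.0 ± 0.849 CPM in wild type and 22.1 ± 3.46 in heterozygotes (-0.29, adjusted p 0.487). The 10 minor spliceosome genes and the 15 genes of the exon junction complex and nonsense-mediated decay gave 0 at that level, the 30 SR-related and kinase genes 1 higher (Rnps1) and 1 lower (Pnisr), and the 18 snRNP assembly genes 1 higher (Snupn). These counts moved with the libraries used, as did those of all genes. At that level 0 other splicing genes were left without W32 (6.15% of all genes) and 0 without H12 (5.94%), 3 without W33 (7.35%) and 4 without H75 (6.77%). Without H11 there were 21 (10.99%), against 10.1% of all genes.

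**Figure D5:**
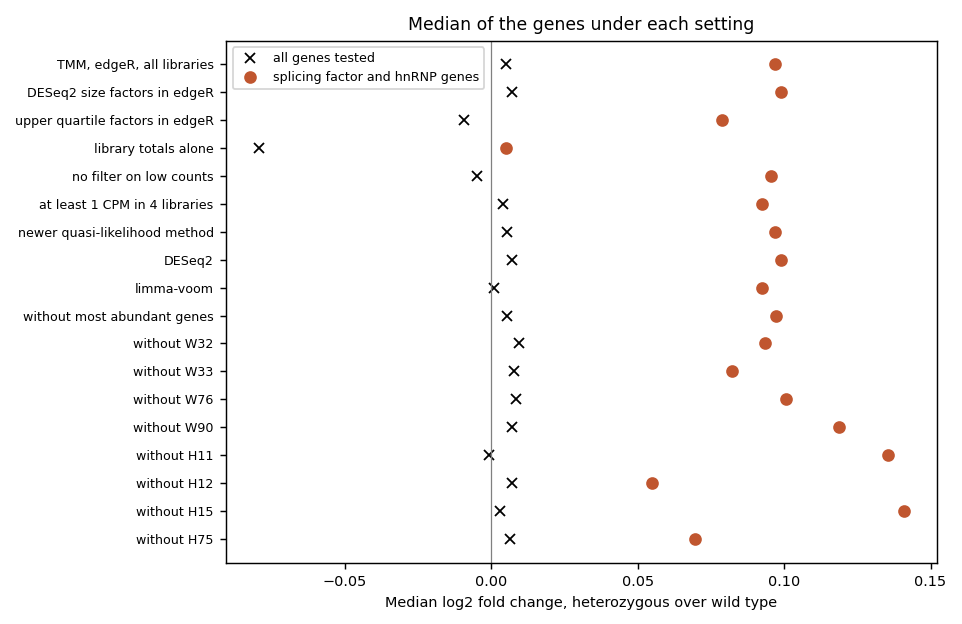
Median log2 fold change, heterozygous over wild type, of the members (circles) and of all genes tested (crosses) under each processing setting. The members' median lies above that of all genes in each setting drawn, and with library totals alone it is 0.0049.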

How the data were processed

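RNA of 8 livers, depleted of ribosomal RNA, was sequenced. The submitters' processing notes name build mm10 and, without roles, SAMtools 1.9, GATK 3.8, fastp 0.19.5 and Bowtie2 2.2.9. Not given in the sources used here are the counting program, its annotation and its strand setting. Unnormalized estimated counts for each gene were deposited, and 90.0% of these values are whole. The authors' second table holds, per the file headers, gene length, a ratio (fold), its log2 value, a p-value and an adjusted p-value.

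Estimated counts were rounded, filtered with filterByExpr, scaled by TMM and fitted with the quasi-likelihood test of edgeR 4.0.16 (R 4.3.3) with group as the term, and p-values were adjusted by Benjamini-Hochberg over 14261 genes. RPKM was computed from CPM and the deposited length. Within a group no 2 libraries were duplicates (chi-square over genes, 22.2 to 179 per gene). The scripts were tested on simulated data. Alternatives were other scaling factors and filters, DESeq2 1.42.0, limma-voom (limma 3.58.1), removal of abundant genes and each library left out.

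Members named were the 4 of lowest p and the 3 of highest RPKM in each family, and other splicing genes the 3 of lowest p per list at an unadjusted p under 0.05. Further names (Srsf6, Snrpd2, Snrpf, Snrpn, Hnrnpf, Hnrnph1, Hnrnph2, Hnrnpk, Hnrnpll, Hnrnpr, Hnrnpul2, Sf3a1, Sf3a2, Sf3a3 and Dhx38) were chosen after their values were seen. The members and lists were chosen with earlier results of these data known. Annotation came from GENCODE mouse on GRCm38, the assembly of mm10.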

Additional observations from a re-analysis of the deposited data

Results flagged for a closer look

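In 8 of 102 groups of 4 libraries tested, 1 library stood apart from the other 3 by Dixon's criterion. About 5.1 would be flagged by chance if the groups were independent. The members share the same libraries and no such count was made over all genes, so 8 cannot be judged against 5.1. Wild-type W90 was high for Hnrnpa2b1 (333.826 CPM), Hnrnpf (179.66 CPM), Snrpd2 (20.9162 CPM) and Snrpf (11.0443 CPM). Wild-type W76 was low for Srsf4 (31.4881 CPM) and Srsf5 (112.578 CPM). Among heterozygotes, H12 was high for Sf3b1 (116.727 CPM) and H11 for Srsf6 (94.2132 CPM).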

How the results depend on the processing

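No paired analysis was possible because the columns of the count table carry no replicate number. No member passed an adjusted p of 0.05 under any setting run, and the lowest was 0.166, for Snrpd1 without H15. The number of all genes called was 0 in the edgeR fit with TMM, 18 with no filter, 1 with the newer quasi-likelihood method and 150 with DESeq2, and 0 to 252 with 1 library left out (252 without H15). Members at an unadjusted p under 0.05 numbered 0 to 5 with 1 library left out. There were 5 without W90 (9.86% of all genes) and 3 without H15 (16% of all genes). Members whose groups did not overlap numbered 1 with library totals alone (Hnrnpr), against 662 of 14261 genes. With 1 library left out they numbered 0 to 5. Without H15 there were 5 (13.4% of all genes) and without W90 4 (10%). Without H11 there were 2, against 1148 of 14551 genes, and without W32 1, against 902 of 14454. Positive members numbered 28 with library totals alone and 37 to 46 with 1 library left out. The 9 other splicing genes at an unadjusted p under 0.05 became 0 to 21 with 1 library left out: 0 without W32 and without H12, 3 without W33, 4 without H75 and 21 (10.99%, against 10.1% of all genes) without H11. Eif2s1 passed with DESeq2 (adjusted p 0.0159). With library totals alone 16 members turned negative, among the named ones Hnrnpab (-0.0811), Hnrnph1 (-0.000699), Hnrnpk (-0.0832), Hnrnpul2 (-0.0219), Sf3b1 (-0.0608), Snrpc (-0.0202), Srsf6 (-0.0340), Sf3a1 (-0.0794) and Sf3a3 (-0.0492). With upper quartile factors 6 did, among them Hnrnpab (-0.0047), Hnrnpk (-0.0066) and Sf3a1 (-0.0120). With 1 library left out, 18 members changed sign in at least 1 fit, among the named ones Hnrnpab (-0.109 to 0.100), Hnrnpk (-0.0438 to 0.0664), Sf3b1 (-0.0275 to 0.0532), Sf3a1 (-0.0796 to 0.0843), Sf3a3 (-0.0639 to 0.195), Snrpn (-0.0013 to 0.249), Srsf1 (-0.102 to 0.0231), Srsf2 (-0.0942 to 0.0362) and Srsf5 (-0.0136 to 0.156). The cause of these changes was not tested.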
